A study of Mus musculus with 36 samples.

Results

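The comparison described here is between the blood of mice exposed to 0.75 Gy of neutrons with no x-rays and the blood of unirradiated mice, 7 days later, across all genes that could be tested. Its members are the 6 arrays whose titles carry a neutron percentage of 100 and the 6 control arrays, out of 36 arrays in 6 groups, with 1 mouse on each array. All mice were male, of the strain C57BL/6J, and 8 to 10 weeks old, and none carried a genetic change. The controls received a sham exposure and no dose (0 Gy). The accelerator source that makes the neutrons also emits a minor share of photons, which the label of 100% leaves out. The remaining groups received 3 Gy in total, as x-rays alone or as mixed fields of x-rays and neutrons with 5, 15 or 25% of the dose as neutrons, and of these the 25% field, with nominally the same neutron dose, is used below where it shows how neutrons alone differed. Blood was drawn from the heart into an RNA-stabilizing solution, so that each sample holds RNA from all cells of whole blood, and globin transcripts were depleted before labeling.

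Neutrons deposit their energy along short, dense tracks of recoil protons, which leave clustered breaks in DNA that cells repair poorly. Lymphocytes, and B cells above all, die readily after irradiation, while the marrow first stops and then resumes the release of young red cells, granulocytes and platelets. Young red cells (reticulocytes) keep the globin, heme and membrane-skeleton transcripts of their precursors for a short time, so that whole blood RNA carries a record of recent red-cell formation beside that of the white cells. Because each sample is a mixture, fewer cells of a type and less RNA per cell cannot be told apart in any result below.

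The arrays of the exposed mice had fewer probes well above background and a lower median intensity. The number of probes well above background, as called by the scanner software, ranged from 19492 to 20724 in the controls (median 19920) and from 16444 to 18989 after neutrons (median 16564), without overlap (exact two-sided permutation test, p = 0.00216, the smallest that 6 arrays against 6 allow, adjusted p = 0.00325 over 6 array measures). The log2 median intensity of an array was 4.5 ± 0.14 (SD, n = 6) in the controls and 3.57 ± 0.23 (n = 6) after neutrons. The spike-in RNAs that were added in fixed amount lay 8.29 ± 0.26 above the array median in the controls and 10.18 ± 0.10 above it in the exposed mice (exact permutation test, p = 0.00216 for each measure). This gap exceeds that between the array medians, so that the spike-ins themselves were brighter on the neutron arrays. Centring on them, used below, carries that difference too. All 6 neutron arrays were scanned in 1 session, which held the 25% mixed-field arrays too, whereas 5 control arrays were scanned in another session and 1 in a further session. Scan session and exposure therefore cannot be told apart in the comparison with controls. Defining markers of B cells, T cells, NK cells, red cells, neutrophils, monocytes and platelets were well above background on all 12 arrays, and the heart-muscle genes Myh6, Tnni3 and Tnnt2 were on none. Liver transcripts were present on arrays of both groups and are described last, with the counts that moved most without the 6 arrays richest in them. Below, the 6 arrays with liver transcripts are those with a mean level above 3 over 10 hepatocyte genes. The other 6 were not free of such transcripts.

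Of 15085 genes tested, 5522 (36.6%) differed between neutron-exposed and control mice, 2432 (16.1%) being higher and 3090 (20.5%) lower after neutrons (limma, p below 0.001 and Benjamini-Hochberg adjusted p below 0.05). In 2264 genes (15%) every exposed mouse lay above every control, and in 3061 (20.3%) every exposed mouse lay below. These shares are the background for each list of genes below. The rises were larger than the falls, with a median of 1.49 against -1.13 on the log2 scale, and 564 genes rose by more than 2 on that scale whereas 103 fell by as much. Among those of the 42 lists that held called genes, the B-cell and MHC class II lists had the lowest medians and the globin, red-cell membrane and reticulocyte lists the highest. Many mitotic genes rose, and the lists for tRNA charging and modification, ribosome biogenesis, translation initiation and mitochondrial ribosomes had medians below that of all genes. The hepatocyte list had a still lower median (-3.24) with none of its 10 genes called.

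**Figure D1:**
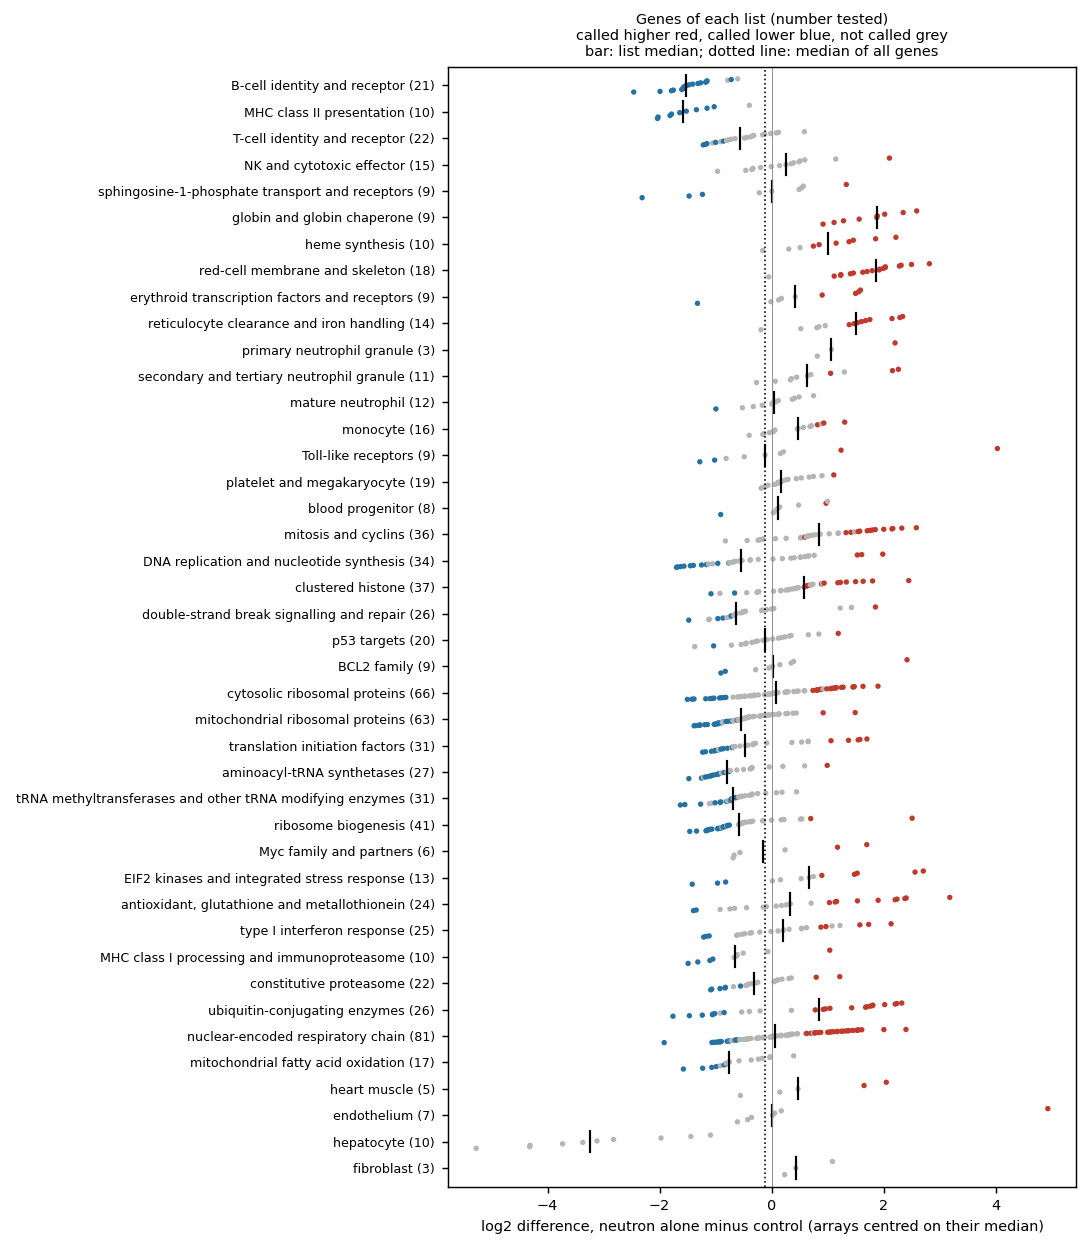
Log2 difference between neutron-exposed and control mice (horizontal axis) for each tested gene of 42 lists (rows, with the number tested), with called genes in red (higher) or blue (lower), a black bar at the list median and a dotted line at the median of all 15085 genes. The B-cell and MHC class II lists lie almost wholly to the left, the globin, heme, red-cell membrane and reticulocyte lists to the right, and the ribosomal protein and respiratory chain lists spread to both sides.

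Levels are given as log2 intensity over the median of the array, so that a difference is relative to the typical probe. The median of all genes was -0.12 under this centring, 0.30 with scaling on the 75th percentile, -0.02 with quantile normalization, -0.45 in the deposited normalized table, -1.19 with normexp background correction and -2.08 with centring on the spike-in RNAs. With the last of these 13617 genes were called lower and 80 higher, and with normexp 354 were lower and 3 higher, so that the sign of a rise depends on the reference. Relative to the median of all genes, the globin list lay 1.21 to 2.06 higher and the B-cell list 1.33 to 1.56 lower under each of 7 scalings. Centring on the array median, the 75th percentile, the common probes or the spike-in RNAs shifts all genes of an array equally. Among these, here and below, a relative value can change only through which genes and probes pass the filters, so that the 7 are not separate checks. Of the 80 called risers among the 152 genes chosen for the text, 80 kept their call with the 75th percentile, 68 of 72 tested with quantile normalization, 63 of 70 in the deposited table, 12 of 64 with spike-in centring and 1 of 79 with normexp. Of the 66 called fallers, 66 kept it with spike-in centring and 28 of 58 tested with normexp. In what follows, rose and fell refer to the centring on the array median.

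**Figure D2:**
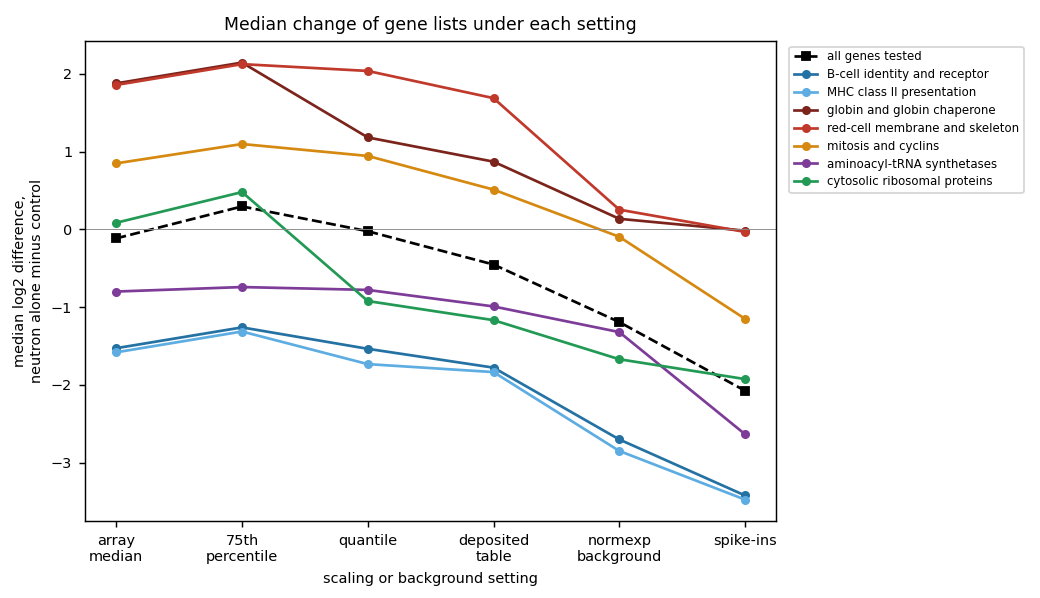
Median log2 difference, neutron-exposed minus control (vertical axis), of 7 gene lists and of all genes tested (dashed line, squares) under 6 settings for scaling or background (horizontal axis). All lines sink from the left to the right, the globin and red-cell membrane lists stay above the line of all genes and the B-cell and MHC class II lists stay below it, while the cytosolic ribosomal protein list crosses it.

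Genes of B cells fell in the neutron-exposed mice in larger proportion than those of the other white-cell lists. Of 21 tested genes of B-cell identity and the B-cell receptor, 19 fell and 0 rose, with a median of -1.53, against 20.5% of all genes. Fcer2a, the low-affinity IgE receptor of mature B cells, had levels of 6.02 to 7.12 in the controls (median 6.49) and of 3.54 to 4.43 after neutrons (median 4.20). The ranges were far apart, and the level was 5.51-fold lower (log2 difference -2.46 ± 0.22 SE, limma adjusted p = 1.09e-06). Tnfrsf13c encodes the BAFF receptor, on whose signal the survival of mature B cells depends. It lay between 6.47 and 7.04 in the controls (median 6.88) and between 4.6 and 5.17 in the exposed mice (median 4.83), again without overlap, a fall of 1.99 ± 0.14 on the log2 scale (adjusted p = 2.49e-07). The adaptor Blnk, which couples the B-cell receptor to its downstream kinases, fell 3.38-fold and Fcrla, an intracellular Fc receptor-like protein of B cells, 3.46-fold. Cd200, a membrane glycoprotein of B cells and other lymphoid cells, fell from a median of 4.19 to 2.01. Among 89 genes that the array annotation describes as immunoglobulin chains, a list chosen after the data had been seen, 74 fell and 1 rose.

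MHC class II molecules present peptides to helper T cells and are carried in blood mainly by B cells and by some monocytes and dendritic cells. Of 10 tested genes of this pathway 9 fell and 0 rose (median -1.58). H2-Aa, the alpha chain of the I-A molecule, ranged from 8.59 to 9.28 in the controls (median 9.02) and from 6.81 to 7.12 after neutrons (median 6.96), a 4.07-fold lower level (log2 difference -2.03 ± 0.15, adjusted p = 2.81e-07). The peptide-loading chain H2-DMb2 fell 4.11-fold, its inhibitor chain H2-Ob 3.45-fold, and Cd74, the invariant chain, 3.51-fold. In all 4 genes every exposed mouse was below every control.

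T-cell and NK-cell genes were less affected. Of 22 T-cell genes 5 fell and 0 rose (median -0.57), a share close to that of all genes called lower (20.5%). Cd2, an adhesion molecule of T and NK cells, had levels of 8.0 to 8.76 in the controls and of 6.76 to 7.75 after neutrons, and fell 2.33-fold (log2 difference -1.22 ± 0.20, adjusted p = 0.000191). Lat, the adaptor that relays T-cell receptor signals, fell 2.26-fold. Bcl11b, a transcription factor of T-cell identity, fell 2.23-fold, but its call was lost without neutron replicate 3 (-1.07). Of 15 NK and cytotoxic genes 1 rose, the granzyme gene Gzmk (2.10 ± 0.24, adjusted p = 1.31e-05), which was well above background on 6 control and 5 neutron arrays, and the list median was 0.26.

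Lymphocytes leave tissues for the blood along a gradient of sphingosine-1-phosphate. Spns2, the transporter that exports this lipid, had levels of 3.72 to 4.48 in the controls (median 4.04) and of 1.33 to 2.03 after neutrons (median 1.90), a 4.97-fold lower level (log2 difference -2.31 ± 0.17, adjusted p = 2.79e-07). Its receptors on lymphocytes, S1pr1 and S1pr4, fell 2.35-fold and 2.78-fold, and Sphk1, a kinase that makes the lipid, rose 2.52-fold. The other 5 of the 9 tested genes of the list were not called, and the list median was 0.00.

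The 12 largest falls among genes that were well above background on each of the 12 arrays included Fcer2a, Cd200 and Spns2 and 9 genes from no list. Bend5, a BEN-domain protein, fell 5.17-fold from a median of 4.08 to 1.67. Rasgrp3, an exchange factor that activates Ras and Rap downstream of the B-cell receptor, fell 4.86-fold, and the lysophospholipid receptor P2ry10, a lymphoid G-protein-coupled receptor, 4.46-fold. H2-Bl, a class I-like histocompatibility gene, fell 4.89-fold, and Mif4gd, which takes part in the translation of histone mRNAs, 4.47-fold by the probe used (-2.16), while its other probe gave -0.86. For Cacna1i, a T-type calcium channel, the probe used fell by 2.23 whereas a second probe of the gene gave 0.70, so that the value depends on the probe. Abhd14b and Adck3 fell 4.47-fold and 4.21-fold, with control replicate 1 above the other controls in both. Chst3, a carbohydrate sulfotransferase, fell 3.12-fold, from levels of 6.23 to 7.35 in the controls to 4.76 to 5.46.

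Genes of the red-cell lineage rose together. All 9 tested genes of the globins and their chaperone, 17 of 18 genes of the red-cell membrane and its skeleton, 7 of 10 heme synthesis genes and 9 of 14 genes of reticulocyte clearance and iron handling rose, and none of the tested genes of these 4 lists fell, against 16.1% of all genes called higher. The list medians were 1.88, 1.86, 1.00 and 1.5. Relative to the median of all genes these medians were positive under each of the 7 scalings (from 0.73 to 2.14), but as differences they were -0.02, -0.03, -1.10 and -0.84 with spike-in centring, and with normexp heme synthesis (-0.46) and reticulocyte clearance (-0.06) turned as well.

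Hbb-y, an embryonic beta-like globin, had the smallest standard error of the 9. Its level was 3.20 to 3.55 in the controls (median 3.32) and 5.59 to 5.89 after neutrons (median 5.65), a 5.09-fold higher level (log2 difference 2.35 ± 0.12, adjusted p = 5.03e-08). Ahsp, the chaperone that protects free alpha globin, rose 6.02-fold, from a median of 8.86 to 11.54. The adult globins Hbb-bt and Hba-a2, whose transcripts the depletion step targets, rose at least 3.70-fold and, by the measured values, 2.96-fold. Their spots were saturated on all 6 neutron arrays, so that the fold of Hbb-bt is a lower bound, and the spot of Hba-a2 was saturated on 1 control array as well, so that its fold is uncertain in both directions. The median of Hbb-bt was 13.73 in the controls and 15.64 after neutrons.

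In heme synthesis, Cpox and Urod, which act in the later cytosolic and intermembrane steps, rose 4.66-fold and 3.62-fold. Alas2, the erythroid form of the first and rate-limiting enzyme, lay between 14.24 and 14.68 in the controls and between 15.40 and 16.13 after neutrons (2.61-fold higher by the measured values, with saturated spots on all 6 neutron arrays and 1 control array), and Fech, which inserts the iron, rose 2.75-fold. The membrane skeleton showed larger rises. Tmod1, which caps the actin filaments of the skeleton, ranged from 2.61 to 3.86 in the controls (median 3.37) and from 5.69 to 6.43 in the exposed mice (median 6.10), a 7.05-fold higher level (log2 difference 2.82 ± 0.21, adjusted p = 3.28e-07). Ank1, which anchors the skeleton to the membrane, rose 4.86-fold, and Epb4.1, which ties the skeleton to actin, at least 3.79-fold, with saturated spots on 5 of the 6 neutron arrays.

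Genes of maturing red cells behaved likewise. Slc25a37, the mitochondrial iron importer, rose 4.89-fold, Bnip3l, which marks mitochondria for removal in reticulocytes, 4.44-fold, and the ferritin chain Fth1 3.04-fold. Each had control and exposed ranges well apart, such as 12.63 to 13.28 against 15.12 to 15.30 for Slc25a37. Of 9 erythroid transcription factors and receptors 4 rose and 1 fell. Gata1, the master regulator of the lineage, rose 2.83-fold (from 5.72 to 6.44 in the controls to 7.47 to 7.69), Klf1, which drives adult beta globin, 3.00-fold, and Lmo2, a bridging factor of the same complex, 2.94-fold, while Ldb1, another member of that complex, fell 2.50-fold. Bcl2l1, whose product BCL-XL protects late erythroblasts from death, rose 5.34-fold and was the only member of 9 tested BCL2-family genes to rise. Gata1, Klf1 and Lmo2 lay below the controls in at least 1 of the spike-in and normexp settings.

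Leaving out the 4 control and 2 neutron arrays with a hepatocyte mean above 3 keeps 2 controls and 4 exposed mice. Over all 15085 genes 1196 were then higher and 1795 lower, against 2432 and 3090 with all 12 arrays. Those lower totals are the background for every list count after this step, here and below. Of the red-cell lists, 4 of 9 globin, 4 of 10 heme, 12 of 18 membrane and 7 of 14 reticulocyte genes stayed higher and 0 were lower, with medians of 1.87, 0.93, 1.57 and 1.58. The same step left 16 of 21 B-cell genes and 9 of 10 MHC class II genes lower. The medians of the latter lists were then -1.70 and -1.65, no nearer to 0 than with all 12 arrays.

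**Figure D3:**
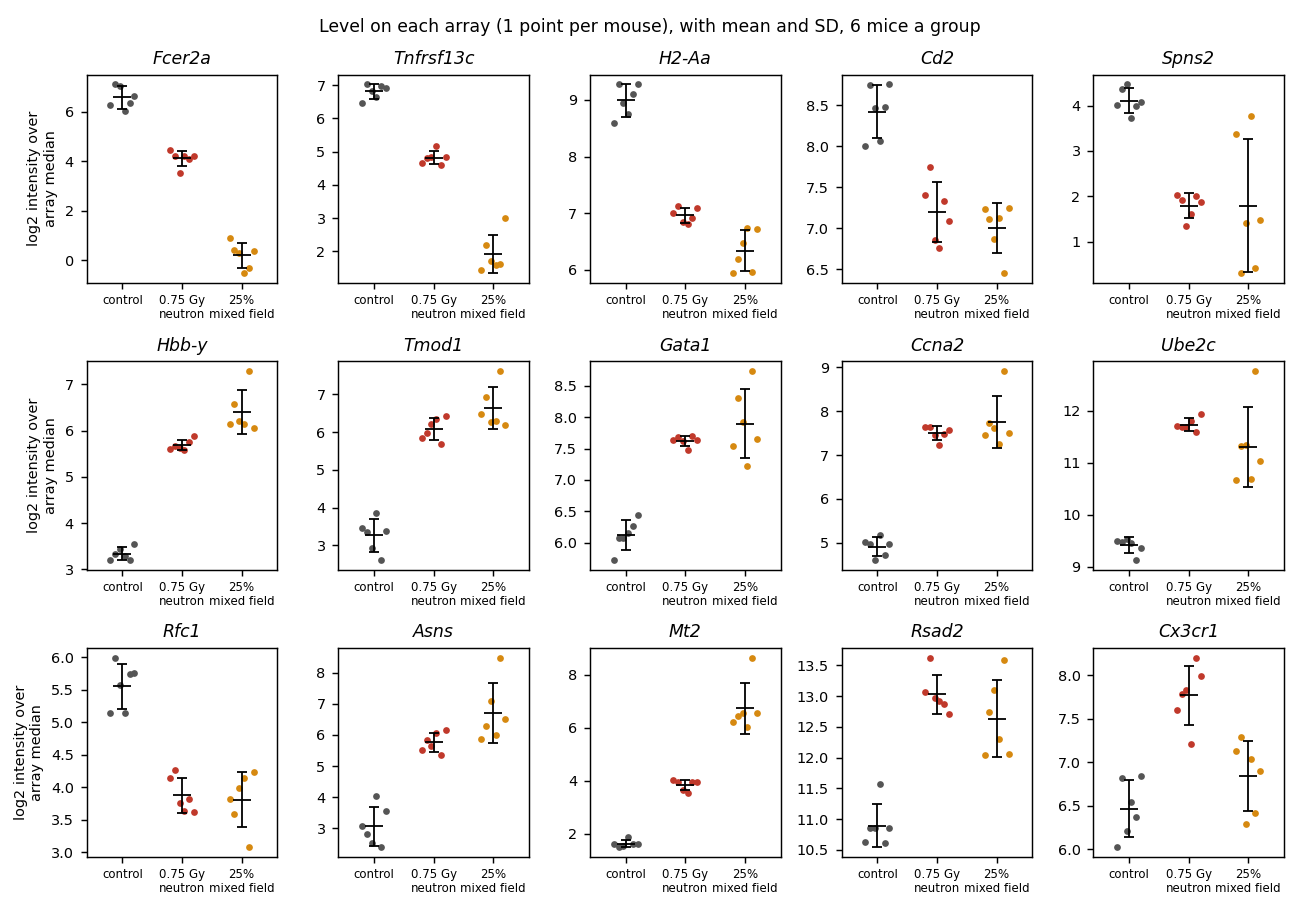
Level of 15 genes on each array (vertical axis, log2 intensity over the array median) in controls, mice exposed to 0.75 Gy neutrons and mice exposed to the 25% mixed field, with 1 point per mouse and the mean and SD of 6 mice. The neutron-exposed mice are separated from the controls in every panel, they lie between the controls and the mixed field for Fcer2a, Tnfrsf13c and Mt2, and the mixed-field mice scatter more widely for most genes.

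Myeloid and platelet genes changed little as groups. Of 12 genes of mature neutrophils 1 fell and 0 rose (median 0.05), the receptor for granulocyte colony-stimulating factor Csf3r, at 9.57 to 10.19 in the controls and 8.50 to 9.25 after neutrons (1.99-fold lower). Some granule genes of neutrophil precursors rose. Elane, neutrophil elastase of the primary granules, rose 4.61-fold, from a median of 5.13 to 7.10 (log2 difference 2.2 ± 0.30, adjusted p = 4.74e-05), and Camp, the cathelicidin of the secondary granules, 2.07-fold. Of 3 primary-granule and 11 secondary- and tertiary-granule genes, 1 and 3 rose and none fell, and without the 6 arrays with liver transcripts 0 and 2 were called (limma). With slide as a random block 1 of the 11 was called. Ltf, lactoferrin, was well above background on 1 control and 5 neutron arrays and had levels of -2.02 to 0.70 against 1.08 to 3.67, and its call was lost without any of control replicates 1, 2 and 6 (2.2 to 2.26).

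Of 16 monocyte genes 3 rose (18.8%, against 16.1% of all genes) and 0 fell (median 0.47). Cx3cr1, the fractalkine receptor of patrolling monocytes, had levels of 6.02 to 6.84 in the controls and of 7.21 to 8.20 after neutrons, and rose 2.47-fold (adjusted p = 9.18e-05). Csf1r, the receptor for macrophage colony-stimulating factor, rose 1.77-fold by the probe used (0.82), while its other probes gave 0.14 and 0.12, and its call was lost without any of neutron replicates 3, 5 and 6 (0.78 to 0.80). Without the 6 arrays with liver transcripts, a step that lowered the calls over all genes too, none of the 16 monocyte genes was called (median 0.31). Platelet genes had a median of 0.18, and 1 of 19 was called, the chemokine Pf4 (log2 difference 1.11 ± 0.23, adjusted p = 0.00105). Among 8 genes of blood progenitors the transcription factor Runx1 fell 1.88-fold by the probe used (-0.91), while its other probe gave -0.40. Flt3, a cytokine receptor of early progenitors and dendritic cells, was 1.96-fold higher, a call that was lost without any of 7 arrays (neutron replicates 1, 3, 5 and 6, and control replicates 1, 4 and 5, with values of 0.89 to 0.99).

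Genes of mitosis rose. Of 36 tested cyclins and genes of the mitotic machinery 14 rose (38.9%, against 16.1% of all genes) and 0 fell, with a median of 0.85 that lay 0.80 to 1.10 above the median of all genes under each scaling, although it was -1.15 with spike-in centring and -0.10 with normexp. Ccna2, cyclin A2, which drives S phase and entry into mitosis, had levels of 4.61 to 5.18 in the controls (median 4.98) and of 7.23 to 7.65 after neutrons (median 7.52), a 6.00-fold higher level (log2 difference 2.58 ± 0.14, adjusted p = 5.93e-08). Ube2c, the ubiquitin-conjugating enzyme with which the anaphase-promoting complex marks mitotic cyclins for destruction, rose from a median of 9.47 to 11.70 (5.01-fold, adjusted p = 5.60e-08). Pttg1, securin, which holds sister chromatids together until it is destroyed by the same complex, rose 4.43-fold, the spindle protein Nusap1 4.48-fold, and Fzr1, an activator of the complex in late mitosis, 4.01-fold. Crip2, a LIM-domain protein outside the list, rose 4.42-fold. Every exposed mouse was above every control for all 6 of these genes.

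The promoters of 2 of the called mitosis genes are printed because cell-cycle genes often carry CCAAT boxes, to which the factor NF-Y binds, and a CHR element (TTTGAA), to which the DREAM complex binds. Each run is the 250 bases before the gene's start in RefSeq (build GRCm38.p6, 5′ to 3′ on the gene's strand), and capitals mark CCAAT or TTTGAA on either strand. Ube2c lies at chr2:164769679-164769928 on the + strand and Pttg1 at chr11:43425982-43426231 on the - strand.
Ube2c: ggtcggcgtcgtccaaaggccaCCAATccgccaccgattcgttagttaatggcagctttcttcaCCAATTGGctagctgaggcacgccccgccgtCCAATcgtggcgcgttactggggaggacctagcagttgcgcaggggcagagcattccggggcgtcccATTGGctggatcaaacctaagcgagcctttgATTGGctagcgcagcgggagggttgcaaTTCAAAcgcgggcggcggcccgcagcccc
Pttg1: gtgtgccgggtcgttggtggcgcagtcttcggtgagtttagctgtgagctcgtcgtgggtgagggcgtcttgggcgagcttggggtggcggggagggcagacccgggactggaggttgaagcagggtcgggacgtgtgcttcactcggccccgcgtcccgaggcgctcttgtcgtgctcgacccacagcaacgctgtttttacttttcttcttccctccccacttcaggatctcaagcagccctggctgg
The Ube2c promoter held 6 CCAAT matches on the 2 strands, of which some overlap, and 1 TTTGAA, and the Pttg1 promoter held neither. Of the 14 mitosis genes called higher, 11 had a promoter in the table, and 7 of these (63.6%) held CCAAT, 4 (36.4%) TTTGAA and 4 (36.4%) both, compared with 34.5%, 16.3% and 5.73% of 27025 promoters of the same length. These matches describe the sequences, and binding was not measured.

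DNA replication genes did not follow the mitotic genes. Of 34 tested genes for replication and nucleotide synthesis 3 rose and 10 fell (median -0.55). Rfc1, the large subunit of the clamp loader, fell from 5.14 to 5.99 in the controls to 3.63 to 4.26 after neutrons (3.21-fold lower, adjusted p = 7.02e-06), and the primase subunit Prim1, the licensing factor Cdt1 and the flap endonuclease Fen1 fell 3.25-fold, 2.73-fold and 2.63-fold. In the other direction Rrm2, the regulatory subunit of ribonucleotide reductase, rose 3.96-fold and Lig1, the ligase that joins replicated fragments, 2.89-fold. The list median was 0.38 with scaling on the probes that stood well above background everywhere, and relative to all genes it ran from -0.43 to 0.20 over the scalings. Without the 6 arrays with liver transcripts 4 of these genes were lower. Of 37 clustered histone genes 13 rose and 2 fell (median 0.58), and without those 6 arrays 4 were higher and 0 lower (limma, median 0.52). Hist1h2bp rose 3.49-fold, from 3.22 to 3.87 in the controls to 5.38 to 5.65, and Hist1h4i 2.34-fold, and Hist1h2aa was 2.12-fold lower with 3 of 6 exposed arrays well above background. Neighbouring histone genes are alike in sequence, so that their probes may read the transcripts of several copies.

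Genes of the DNA damage response were mostly not called by day 7. Of 26 genes for the signalling and repair of double-strand breaks 1 rose (3.85%, against 16.1% of all genes) and 4 fell (15.4%, against 20.5%), with a median of -0.63. Among the 4, Mdc1, the mediator that gathers repair proteins at a break, was 2.79-fold lower, and Xrcc6, a subunit of the Ku complex, 1.65-fold lower. Of 20 p53 targets 1 rose and 1 fell (5% each, below the shares of all genes), with a median of -0.12, the same as for all genes. Cdkn1a, the cell-cycle inhibitor p21, had levels of 0.26 to 1.33 in the controls (median 0.68) and of 1.23 to 2.65 after neutrons (median 1.98), ranges that overlapped, with a log2 difference of 1.19 ± 0.25 (adjusted p = 0.00128). That call was lost without any of neutron replicates 2 and 3 and control replicates 1, 2, 3 and 6 (1.09 to 1.17). Mdm2, the ubiquitin ligase that restrains p53, was not called (0.32 ± 0.15, adjusted p = 0.0825). Ddb2, a damage sensor of nucleotide excision repair, was lower by 1.04 ± 0.22 (log2 difference -1.04, adjusted p = 0.00128), and its call was lost without any of 7 arrays (neutron replicates 3, 4 and 6, and control replicates 2, 3, 5 and 6, -1.03 to -0.93).

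Genes for making proteins moved down in most groups, but ribosomal protein genes moved both ways. Of 27 aminoacyl-tRNA synthetases, which charge tRNAs with their amino acids, 13 fell and 1 rose (median -0.80), and of 31 tRNA-modifying enzymes 12 fell and 0 rose (median -0.68). Of 41 genes of ribosome biogenesis 18 fell and 2 rose (median -0.59), and of 63 mitochondrial ribosomal proteins 21 fell and 2 rose (median -0.55). Of 31 initiation factors 10 fell (32.3%, against 20.5% of all genes) and 5 rose (16.1%, the same share as of all genes), with a median of -0.47. All 5 medians lay below that of all genes under each of the 7 scalings, by between 0.13 and 1.04. Aars2, the mitochondrial alanyl-tRNA synthetase, had levels of 2.34 to 3.08 in the controls and of 1.19 to 1.37 after neutrons (log2 difference -1.48 ± 0.14, adjusted p = 1.95e-06), and Vars, which charges valine tRNA, fell 2.27-fold. The asparaginyl-tRNA synthetase Nars rose 1.99-fold. Dus2, which makes dihydrouridine in tRNA, fell 2.93-fold, and the nucleolar GTPase Gnl3 2.53-fold. Mrpl12 and Mrpl38 of the large mitochondrial subunit fell 2.55-fold and 2.61-fold, whereas Mrpl32 rose 2.81-fold. Among initiation factors Eif4b fell 2.35-fold by the probe used (-1.23), while its other probes gave -0.71 and -0.07. The scaffold Eif4g1 fell 2.11-fold, and Eif1, which guards the choice of start codon, rose 3.25-fold (from a median of 10.30 to 11.95).

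Of 66 cytosolic ribosomal protein genes 21 rose (31.8%, against 16.1% of all genes), 11 fell (16.7%, against 20.5%) and 34 were not called, with a median of 0.09. The balance turned with the scaling, to 4 higher and 40 lower of 54 tested with quantile normalization and 1 higher and 44 lower of 53 in the deposited table, against 29 and 6 of 66 with 75th percentile scaling. The median was 0.48 with 75th percentile scaling, -0.92 with quantile normalization and -1.17 in the deposited table, so that its side of the median of all genes depended on the scaling (-0.90 to 0.20 relative to it). The acidic stalk proteins Rplp1 and Rplp2 rose 3.73-fold and 3.10-fold, and Rpl41 2.75-fold. Rps18 and Rps6 of the small subunit fell 2.84-fold and 2.68-fold, and Rps19 fell 1.90-fold. Probes of 1 gene differed: Rplp1 gave 1.90 by the probe used and 0.07 by another, and Rps6 -1.42 against -0.10 and -0.14. Rpl26 was 1.76-fold lower by the probe used (-0.82) and gave -0.26 and 0.26 by its other probes. With 75th percentile scaling it was 0.53 higher, by the other probe that gave 0.26 here. The call of Rpl26 was lost without any of neutron replicate 3 and control replicates 5 and 6 (-0.78 to -0.76). Rpsa (-0.12) and Rps25 (-0.54) were not called by the probes used. The other probes of Rpsa were lower, at -0.54, -1.03 and -0.76, and that of Rps25 gave -0.21. The annotation places several of these probes at processed copies of the genes (Rplp1 on chromosome X and Rps6 on chromosome 8), so that the transcript behind each value is uncertain.

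Myc, the transcription factor that drives ribosome biogenesis, was not called (-0.67 ± 0.19, adjusted p = 0.00894), with levels of 2.90 to 3.86 in the controls and of 2.24 to 3.08 after neutrons. Its partner Max rose 2.26-fold and the antagonist Mxd1 3.25-fold by the probe used (1.70), while another Mxd1 probe gave 0.30. The other 4 of the 6 tested genes of this family were not called.

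Stress-response genes included several large rises. In the integrated stress response, kinases phosphorylate EIF2 and so slow translation while the ATF4 program is switched on. Of its 13 tested genes 5 rose (38.5%, against 16.1% of all genes) and 3 fell (23.1%, against 20.5%), with a median of 0.67. Asns, asparagine synthetase and a target of ATF4, had levels of 2.39 to 4.03 in the controls (median 2.93) and of 5.37 to 6.15 after neutrons (median 5.74), a 6.54-fold higher level (log2 difference 2.71 ± 0.27, adjusted p = 2.96e-06). Atf5, a related transcription factor, rose 5.90-fold, and Ppp1r15a, which brings the phosphatase back to EIF2, 2.88-fold. The kinases went opposite ways. Eif2ak1, the heme-regulated kinase of red-cell precursors, rose 2.79-fold (3.47 to 3.95 in the controls, 4.98 to 5.69 after neutrons), and Eif2ak4, the amino acid sensor GCN2, fell 2.67-fold (3.72 to 4.64 against 2.49 to 3.02).

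Of 24 genes of antioxidant defence, glutathione and metallothionein 10 rose and 2 fell (median 0.32, but -0.17 in the deposited table, -1.03 with normexp and -1.61 with spike-in centring). Metallothioneins bind zinc and copper and are induced by metals, glucocorticoids and oxidants. Mt2 was between 1.52 and 1.90 in the controls (median 1.62) and between 3.54 and 4.03 after neutrons (median 3.95), a rise of 4.61-fold (log2 difference 2.21 ± 0.13, adjusted p = 8.35e-08). Mt1 ranged more widely in the controls, from 1.85 to 4.53 against 4.23 to 6.15, so that the groups overlapped, and its other probe gave 0.58 in place of 2.24. Gclm, the regulatory subunit of the enzyme that starts glutathione synthesis, rose 5.20-fold and the glutathione transferase Gstm5 5.29-fold. Cat, catalase, rose 9.07-fold by the probe used, which holds a CA repeat of the kind described below, and by 2.23 (log2) by another probe. Prdx4, a peroxiredoxin of the endoplasmic reticulum, and the transferase Gstt2 fell 2.63-fold and 2.54-fold.

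Of 25 tested interferon-response genes 5 rose (20%, against 16.1% of all genes) and 3 fell (12%, against 20.5%), with a median of 0.21. The list as a whole thus stood near the background. Without the 6 arrays with liver transcripts 2 were higher and 0 lower (limma, median 0.05). Rsad2, the antiviral enzyme viperin, rose from 10.62 to 11.57 in the controls (median 10.85) to 12.71 to 13.62 after neutrons (median 12.95), 4.39-fold (adjusted p = 1.50e-06), and Oas3 and the ubiquitin-like Isg15 rose 3.32-fold and 2.98-fold. Ifit2 and the transcription factor Stat2, which carries the interferon signal, fell 2.17-fold and 2.26-fold. The class I processing genes went down with the latter: of 10 genes 4 fell and 1 rose (median -0.65), with the peptide transporter subunits Tap1 and Tap2 2.81-fold and 2.49-fold lower and the immunoproteasome subunit Psmb8 2.07-fold lower, whereas B2m, the light chain of class I molecules, rose 2.05-fold.

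Of 26 ubiquitin-conjugating enzymes 14 rose (53.8%, against 16.1% of all genes) and 7 fell (26.9%, against 20.5%), with a median of 0.85. Ube2b, the enzyme of post-replication repair and of histone ubiquitination, rose 4.71-fold, Ube2r2 4.61-fold, and Ube2l6, which conjugates Isg15, 3.24-fold. Ube2g2 fell 2.77-fold by the probe used, which holds a CA repeat, and gave 0.73 by another probe. Of 22 subunits of the constitutive proteasome 6 fell (27.3%, against 20.5% of all genes), such as Psmd7 (2.12-fold). In the other direction 2 rose (9.09%, against 16.1%), among them Psmd4 (2.32-fold).

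Of 81 nuclear genes of the respiratory chain 24 rose (29.6%, against 16.1% of all genes) and 15 fell (18.5%, against 20.5%), with a median of 0.06. This balance turned with the scaling, to 15 higher and 18 lower of 63 tested with quantile normalization and 11 higher and 34 lower of 74 in the deposited table (median -0.42), and without the 6 arrays with liver transcripts 15 were higher and 4 lower. The largest changes were those of ATP synthase subunits: Atp5l rose 5.27-fold, from 10.01 to 10.55 in the controls to 12.45 to 12.97, and Atp5c1 fell 3.78-fold by the probe used and was at -0.17 by another. The annotation places the Atp5l probe on chromosome X. Cox6b2, a testis-type subunit of cytochrome oxidase, rose 4.01-fold. Of 17 genes of mitochondrial fatty acid oxidation 6 fell and 0 rose (median -0.76), with Decr1 and Eci1, which handle unsaturated fatty acids, 2.98-fold and 2.35-fold lower. Liver, like heart, is rich in these enzymes. Control replicate 1, which had the highest level of liver genes, also had the highest levels of Decr1 (6.42) and Eci1 (5.85). Without the 6 arrays with liver transcripts, which left 2 controls, 3 of the 17 genes were lower (median -0.56). The part of liver transcripts in the falls of this list was not tested further.

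Most of the largest rises of single genes came from probes with a simple repeat, a pattern noticed after the values were seen. The probes of Erich5, Nos3, Tas2r109 and Wfdc13, with rises of 25.3-fold to 30.5-fold, each hold a run of alternating C and T, and they are shown because the genes share no known role. A stretch of 30 bases of each 60-base probe is printed 5′ to 3′ with the repeat in capitals, and positions are those of the array annotation (mm9). The annotation names the gene at each position and not the exon.
Erich5 (chr15:34403577-34403636, + strand): tgttggtgaTCTCTCTCTCTttctttctct
Nos3 (chr5:23890038-23890097, + strand): ctccctttaaCTCTCTCTCTggagtatctt
Tas2r109 (chr6:132930033-132930092, - strand): agacacgcCTCTCTCTCTgtgttgtcgtgg
Wfdc13 (chr2:164513128-164513187, + strand): CTCTCTCTCTggatcagcttgctcatcatt
Erich5 was at 4.28 to 5.37 in the controls and at 8.80 to 10.60 after neutrons, Tas2r109, a bitter taste receptor, at 3.01 to 3.89 and 7.24 to 9.50, and Nos3, the endothelial nitric oxide synthase, at 0.80 to 2.18 and 5.33 to 7.71. Nos3 was the 1 called gene of the endothelium list, in which Kdr was well above background on all 12 arrays (7.85 to 8.24 in the controls, 7.46 to 8.71 after neutrons), Cdh5 on 1 control array and Tek on none.

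Of the 25 genes with the largest rise that were well above background on all 12 arrays, 17 had a probe with at least 8 bases of alternating CT, TG or CA, and so did 38 of the top 50 and 96 of the top 200, against 1 of the 50 and 2 of the 200 largest falls. Over all 387 tested genes with such a probe the median was 1.57, with 61.8% higher and 4.91% lower, against a median of -0.14, with 14.9% higher and 20.9% lower, in the 14638 genes whose probes held none of the 4 repeats searched. The complementary GA repeat behaved differently, with a median of 0.01 in 64 genes. Where a gene had both kinds of probe (125 genes), the probe with the repeat was the higher in 102 (81.6%), with medians of 1.2 and -0.20. The mean level of the repeat probes was 4.04 to 4.20 on the control arrays and 5.10 to 5.76 on the neutron arrays.

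**Figure D4:**
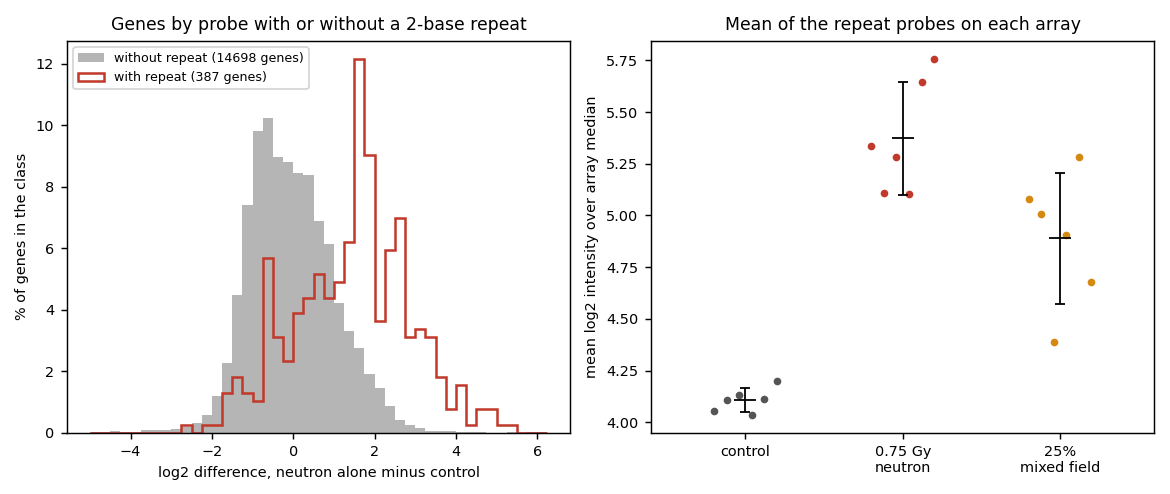
Left, distribution of the log2 difference between neutron-exposed and control mice for 387 genes whose probe holds a CT, TG or CA repeat and for 14698 genes whose probe does not. Right, mean level of the repeat probes on each array (vertical axis, log2 intensity over the array median) in the controls, the neutron-exposed mice and the 25% mixed field, in which the neutron arrays (5.10 to 5.76) lie above the controls (4.04 to 4.20).

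Probes of the same gene show the pattern directly. Tlr7, an RNA-sensing Toll-like receptor, was 16.4-fold higher by the probe used and -0.12 (log2) by its other probe, Map3k5, the stress kinase ASK1, 17.0-fold higher against -0.33, and Ubtf, a factor of ribosomal RNA transcription, 5.69-fold higher against -1.31. For 9030624J02Rik, named Vps35l in RefSeq, the probe with the repeat gave 4.56 and the others 1.09 and 0.36.
Tlr7, probe used (chrX:163742863-163742922): TCTCTCTCTCTgatactgaactgtaccaga
Tlr7, other probe (chrX:163743146-163743205): cataaatgaaggtctgaatttttcctaaca
Map3k5, probe used (chr10:19862193-19862252): agaatgtgTCTCTCTCTCTCTgttcaggca
Map3k5, other probe (chr10:19860474-19860532): cgctagtggatgttctttactacgtcacac
Ubtf, probe used (chr11:102166995-102167054): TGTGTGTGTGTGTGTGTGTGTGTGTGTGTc
The level of the Tlr7 probe used was 5.04 to 5.75 in the controls and 8.51 to 10.51 after neutrons, and that of the other probe 2.72 to 4.26 and 3.15 to 4.54. No value of the repeat probes is therefore read here as a change of the gene named, those of Cat and Ube2g2 above included. The counts of the lists above do hold such genes. Without them, 1 of 40 ribosome biogenesis genes, 9 of 23 antioxidant genes and 2 of 32 replication genes were higher. Of 25 ubiquitin-conjugating enzymes 14 were then higher and 6 lower. Leaving out the 387 genes left 2194 genes higher and 3071 lower. None of the lymphoid, red-cell or mitotic genes named above was measured by such a probe. Among the 12 largest rises, Syt10 and Gm5106 had no such repeat. The value of Gm5106, a predicted gene, was the largest of the 12, at 2.6 to 5.63 in the controls and 8.23 to 10.92 after neutrons (log2 difference 5.90 ± 0.49, adjusted p = 7.45e-07).

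Against the 25% mixed field, which was scanned in the same session and gave nominally the same neutron dose within a total of 3 Gy, neutrons alone left B-cell transcripts higher and several metabolic lists lower. Of the 15085 genes 607 (4.02%) were higher after neutrons alone and 1110 (7.36%) lower. Of the 21 B-cell genes 19 were higher and 0 lower, with a median of 2.78. Fcer2a was higher by 3.92 ± 0.25 (limma adjusted p = 1.33e-06), Chst3 by 3.91 ± 0.21 (adjusted p = 1.72e-07), Fcrla by 3.02 ± 0.24 and Tnfrsf13c by 2.90 ± 0.26. The neutron-exposed mice thus lay between the controls and the mixed-field mice for these genes. H2-Aa (0.63 ± 0.20, adjusted p = 0.0329) and Cd2 (0.19 ± 0.22, adjusted p = 0.552) were not called, and of the 10 MHC class II genes 3 were higher.

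No tested gene of the globin, heme, red-cell membrane or mitosis lists was called higher after neutrons alone than after the mixed field. The globin list nevertheless had a positive median (0.82, with 2 of 9 genes called lower), which ran from -1.75 to 0.95 over the scalings. The heme and red-cell membrane medians were -0.74 and -0.62. Ccna2 (-0.24 ± 0.26, adjusted p = 0.518), Gata1 (-0.28 ± 0.24, adjusted p = 0.426) and Tmod1 (-0.54 ± 0.26, adjusted p = 0.142) were not called, which does not show that the groups are alike. Ahsp was lower after neutrons alone (-2.27 ± 0.29, adjusted p = 0.000153), as were Rrm2 (-1.03 ± 0.24) and Crip2 (-1.04 ± 0.23). Of the 36 mitotic genes 8 were lower and 0 higher (median -0.86), and 7 of 19 platelet genes and 7 of 20 p53 targets were lower. Cdkn1a was lower by 1.93 ± 0.26 (log2 difference -1.93, adjusted p = 0.000205) and Mdm2 by 0.87 ± 0.21 (-0.87). The metallothioneins were lower as well, Mt2 by 2.89 ± 0.37 (-2.89, adjusted p = 0.000147) and Mt1 by 2.46 ± 0.40 (-2.46), among 13 of 24 antioxidant genes. Of 81 respiratory chain genes 43 were lower and 0 higher (median -1.01), and of 22 proteasome subunits 8 were lower. All 10 hepatocyte genes were lower too (median -7.43), the mixed-field arrays all carrying liver transcripts, and their part in these metabolic lists was not tested.

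A single slide held 2 arrays of each of these groups. With slide as a fixed block 76 genes were higher and 251 lower, and on that slide alone 52 and 325. The B-cell list then had 12 and 7 of 21 genes higher (median 2.24 in both), the respiratory chain 20 and 1 of 81 genes lower (median -1.04), the antioxidant list 4 and 3 of 24 lower (median -1.01) and the mitotic list 5 and 2 of 36 lower (median -0.62). Of the platelet genes 0 and 0 of 19 (median -0.75), of the p53 targets 1 and 2 of 20 (median -0.52) and of the proteasome subunits 0 and 0 of 22 (median -0.61) were then called lower. Without mixed-field replicate 5, 1547 genes were higher and 1165 lower.

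Liver transcripts varied widely between mice, and the controls and the neutron-exposed mice overlapped. The mean level of 10 hepatocyte genes was above 3 in 4 control arrays (replicate 1 at 9.67, replicate 4 at 8.18, replicate 3 at 6.23 and replicate 5 at 3.66) and in 2 neutron arrays (replicate 4 at 4.80 and replicate 3 at 3.75), and lower in the other 6 (-0.19 to 2.46). These 6 were not free of liver transcripts. Control replicate 2 had 9 of the 10 genes well above background, and the others had 3 or 4. Alb, serum albumin, was well above background on 5 control and 2 neutron arrays, with levels of -2.16 to 11.32 and of -1.96 to 6.82. None of the 10 genes was called (median -3.24, range -5.27 to -1.09), since the ranges overlapped widely. Apoa2, the brightest of them by the probes used, had levels of 5.51 to 12.02 in the controls and of 6.73 to 7.96 after neutrons (limma, -1.09 ± 0.95, adjusted p = 0.335). Its change was the smallest of the 10, and its other probe gave -4.75. In the 25% mixed field the list mean was 7.63 to 12.01, and all 10 genes were lower after neutrons alone. The part of these transcripts in the results above was not tested beyond leaving out the 6 arrays. Of all 15085 genes 1196 were then higher and 1795 lower, which is the background for the counts that follow. Among lists given above without such counts, 10 of 36 mitotic genes were then higher, while 7 of 27 aminoacyl-tRNA synthetases, 8 of 31 tRNA-modifying enzymes, 11 of 41 ribosome biogenesis genes, 12 of 63 mitochondrial ribosomal proteins, 6 of 31 initiation factors, 7 of 66 cytosolic ribosomal proteins (and 13 higher), 2 of 22 proteasome subunits, 2 of 10 class I processing genes and 3 of 22 T-cell genes were lower. With 2 controls and 4 exposed mice left, 69 of the 80 risers and 48 of the 66 fallers chosen for the text kept their call, and all kept their direction. Those named above that lost it were Bcl11b, S1pr4, Elane, Csf3r, Cx3cr1, Csf1r, Flt3, Runx1, Prim1, Hist1h2aa, Xrcc6, Cdkn1a, Ddb2, Nars, Rps19, Rpl26, Max, Isg15, Ifit2, Stat2, Tap1, Tap2, B2m, Ube2g2 and Myl3. Of other tissues, the fibroblast gene Col1a1 was not well above background on any of the 12 arrays and Dcn on 4 control and 3 neutron arrays. Of 5 tested heart-muscle genes 2 were called higher, the light chain Myl3 (2.05) and the natriuretic peptide Nppa (1.65), both with overlapping ranges, and the call of Myl3 was lost without any of neutron replicates 4, 5 and 6 (1.91 to 1.98).

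**Figure D5:**
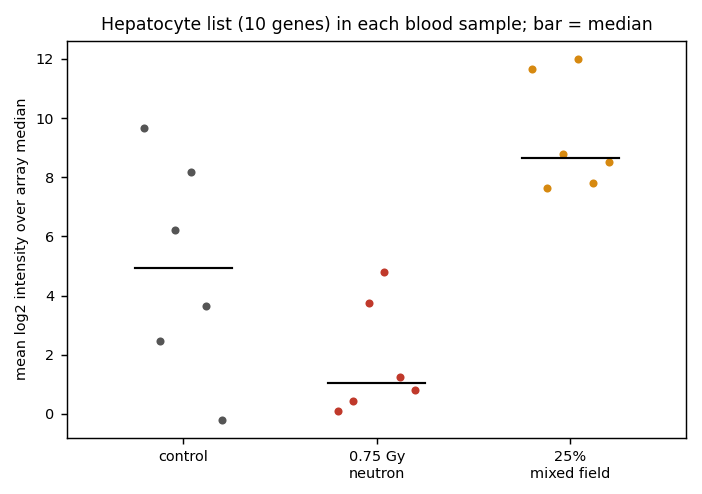
Mean level of 10 hepatocyte genes on each array (vertical axis, log2 intensity over the array median) in the controls, the neutron-exposed mice and the 25% mixed field, with 1 point per mouse. The controls spread from -0.19 to 9.67 and the neutron-exposed mice from 0.10 to 4.80, while the mixed-field mice lie at 7.63 to 12.01.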

How the data were processed

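RNA from the blood of 36 mice was measured on Agilent arrays with 1 colour, 1 mouse per array. For each array the authors deposited a linear intensity per spot, which Feature Extraction 12.0.2.2, per the file headers (12.0.2 in the submitters' processing notes), had corrected for background. The authors also deposited a table of normalized log2 values with column medians of 6.28 to 6.99, whose columns correlated with the scanner values at 0.995 to 0.999. It was used as an alternative. How it was scaled is only partly known.

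Intensities were log2-transformed, averaged over replicate spots and expressed relative to the median of their array. Of 39429 probes, 21484 exceeded background on over 75% of the 36 arrays, and 17963 also varied 1.5-fold in at least 20% of them, and the brightest probe per gene left 15085 genes, of which 11881 had a name in RefSeq. Surrogate values below background limit the low genes, and the number of arrays limits precision. Groups were compared with limma 3.58.1 (R 4.3.3) on the 12 arrays of a comparison, and a gene was called where p was below 0.001 and its Benjamini-Hochberg adjusted value below 0.05. In simulated data for this comparison (15085 genes, of which 100 were changed), 56% of genes changed by 1 and 78% of those changed by 1.5 (log2) were found, with 8 false calls. Far more genes were called in the real data, so that these rates need not hold there. The labels do not say whether mice shared a cage or an irradiation, so p-values measure the spread between these samples.

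Named genes are the 12 largest rises and falls well above background on all 12 arrays and named in RefSeq, up to 4 called members of each of the 42 lists by lowest p and up to 2 in the other direction, and 18 genes fixed by name, of which Eif3f and Rpl27 did not pass the filters. The comparison, the lists and the named genes were chosen with earlier results of these data known. Other genes were chosen after their values were seen. Alternatives were other scalings (75th percentile, common probes, quantile, spike-in RNAs), normexp with an offset of 50, a floor of 10, other filters and probe rules, the deposited table, a joint model over all 36 arrays, replicate and slide blocks, array weights, the random variance test of the methods, the adjusted p alone and leaving out each array. Leaving out arrays with liver transcripts and genes with repeat probes, and for the mixed field the slide as a fixed block and the shared slide alone, was added after the data had been seen. Some genes of the lists are counted but not reported by name here.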

Additional observations from a re-analysis of the deposited data

Results flagged for a closer look

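In 20 of 328 groups of 6 values checked, 1 array stood apart from the other 5 by more of the range of its group than Dixon's 95% critical value, which chance gives in about 1 group in 20. Among array measures, neutron replicate 1 had 18989 probes well above background, against at most 16969 on the other neutron arrays. Among the controls, replicate 1 stood apart for Abhd14b (6.15), Adck3 (5.18) and Eci1 (5.85), where it was high, and for Pf4 (11.16), where it was low. Control replicate 3 was high for Cox6b2 (7.05) and low for Tlr7 (5.04), control replicate 4 was high for Mt2 (1.90) and Rsad2 (11.57), and control replicate 2 was low for Tas2r109 (3.01). Among the exposed mice, replicate 4 was low for Add3 (5.45) and Gata1 (7.47) and high for Ltf (3.67), whose nearest value was 1.35. Neutron replicate 6 was high for Bcl2l1 (14.23), Eif2ak1 (5.69) and Gclm (9.30), replicate 2 was high for Eif1 (12.24), Ldb1 (4.14) and Psmd7 (3.61), and replicate 3 was low for Blnk (6.81). Control replicate 1 also had the highest mean level of hepatocyte genes (9.67), and the part of liver transcripts in its values was not tested.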

How the results depend on the processing

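Of 5522 called genes (2432 higher, 3090 lower), leaving out each array in turn left 4761 to 5394 (2210 to 2408 higher, 2527 to 3060 lower). Counts moved most with the reference level: 13697 (80 higher, 13617 lower) with spike-in centring, 357 (3 and 354) with normexp, and 1535 higher and 4643 lower in the deposited table. The share of calls that were lower was 56% as reported, 37.8% with the 75th percentile, 45.4% with common probes and 75.2% in the deposited table. Without the background filter 12837 genes were called (9559 higher), with 1 model over 36 arrays 3474 (1847 lower), with the adjusted p alone 8990 (3894 and 5096), and without the 6 arrays with liver transcripts 2991 (1196 and 1795), where fewer arrays were tested. Other filters, scalings, weights, tests and the slide block gave 4529 to 6090. The replicate numbers do not pair the mice (correlation of same-numbered deviations -0.20 to 0.37, 1 of 6 arrays best with its own number), and with a replicate block 5099 genes were called (2287 higher, 2812 lower). Against the 25% mixed field the 1717 calls became 1327 to 2712 (413 to 1547 higher, 881 to 1165 lower) when each array was left out, the highest without mixed-field replicate 5, 1421 with a replicate block, 3812 (39 and 3773) with spike-in centring, 237 (0 higher and 237 lower, limma, with 1784 genes at an unadjusted p under 0.05) with normexp, 327 (76 and 251) with slide as a fixed block and 377 (52 and 325) on the shared slide.

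Some genes changed sign. With spike-in centring the differences were 9030624J02Rik -1.54, B2m -0.86, Camp -0.84, Cdkn1a -0.70, Csf1r -1.07, Cx3cr1 -0.59, Eif2ak1 -0.42, Flt3 -0.92, Gata1 -0.40, Isg15 -0.32, Klf1 -0.31, Lig1 -0.36, Max -0.72, Mdm2 -1.58, Mrpl32 -0.40, Mxd1 -0.20, Nars -0.90, Oas3 -0.16, Pf4 -0.79, Psmd4 -0.68, Slc25a37 -0.074, Sphk1 -0.56 and Urod -0.038. With normexp they were 9030624J02Rik -1.15, Alas2 -0.38, B2m -0.73, Camp -0.18, Csf1r -0.88, Cx3cr1 -0.40, Fech -0.31, Fth1 -0.12, Gata1 -0.17, Hba-a2 -0.19, Hist1h4i -0.37, Isg15 -0.19, Lig1 -0.20, Lmo2 -0.19, Max -0.55, Mrpl32 -0.17, Mxd1 -0.060, Nars -0.35, Pf4 -0.61, Ppp1r15a -0.20, Psmd4 -0.52, Rpl41 -0.23, Rplp2 -0.14 and Ube2l6 -0.033. Rpl26 was 0.53 and Rps6 0.17 with the 75th percentile, and Rplp1 -0.84 in the deposited table. The probe taken for a gene can differ between settings, since the filters follow the scaling. For Rpl26 and Rps6 with the 75th percentile, the value was that of another probe (0.26 and -0.10 under array-median centring) plus the shift of all genes. The same held for 9030624J02Rik (0.36) and Slc25a37 (1.82) with spike-in centring. The probes used in the text gave -0.82, -1.42, 4.56 and 2.29 for these genes. For the others the cause was not tested, beyond the shift of all genes given above. Signal near background limits the genes whose spots were not well above it.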
